A study of Homo sapiens with 24 samples.

Results

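The response described here is the one run by ATF4, a transcription factor that cells make in larger amounts when translation initiation is slowed. It is represented by 35 genes of the 26475 listed in the expression files, chosen by symbol: 5 transcription regulators, 6 enzymes of amino acid synthesis, 6 feedback and stress effectors, and 18 cytosolic aminoacyl-tRNA synthetases. Their RNA was measured by RNA sequencing in 24 libraries of 6 groups, with 4 replicates in each. The cells are 786-M1A and OS-LM1, metastatic derivatives of the clear cell renal cell carcinoma (ccRCC) lines 786-O and OS-RC2 that carry mutant VHL. In each line, 1 group carries the short hairpin RNA shPAX8-1 and 1 carries shPAX8-2, both directed against the lineage transcription factor PAX8, and the third group carries sgNTC18, a non-targeting guide RNA. All groups were grown in RPMI medium with 10% FBS and harvested below confluence. The hairpins are cloned in a doxycycline-inducible vector in the study's methods, and doxycycline is not mentioned for these libraries. A hairpin control was not analysed here, so in every comparison with sgNTC18 the loss of PAX8 cannot be told apart from the change of construct type or from anything else that set the sgNTC18 cultures or libraries apart. The comparison of shPAX8-1 with shPAX8-2 stays within hairpin libraries and is therefore given first. The labels number the replicates without saying that they are separate cultures, so the p-values measure the spread between these libraries, which may be technical.

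Kinases that sense amino acid shortage, misfolded proteins in the endoplasmic reticulum, double-stranded RNA or haem and mitochondrial stress phosphorylate the initiation factor eIF2 and slow most translation while the ATF4 mRNA is translated more efficiently. ATF4 pairs with C/EBP proteins and switches on amino acid transporters, the enzymes that make serine, asparagine and cysteine, and the synthetases that load amino acids onto tRNAs. ATF4 protein is thus set largely by translation, so the ATF4 mRNA level itself says little about the activity of the factor. In ccRCC this programme is known for its links to glutathione and serine metabolism and to hypoxic and nutrient stress.

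Library totals of the expected counts ranged from 11634419 to 52059375. PAX8, the targeted gene, had mean levels of 341 CPM (normalized counts scaled to the library total) with sgNTC18, 18.7 CPM with shPAX8-1 and 42.4 CPM with shPAX8-2 in 786-M1A, and of 260, 78.2 and 79.2 CPM in OS-LM1. In 786-M1A the shPAX8-1 libraries held less of it than the shPAX8-2 libraries (log2 fold change -1.18 ± 0.15 SE, adjusted p = 4.0e-05), whereas in OS-LM1 the corresponding value was -0.05 ± 0.12 (log2 fold change and SE, adjusted p = 0.797). The renal marker PAX2 was detected in both lines, while the ccRCC marker CA9 had group means of at most 0.0405 CPM in 786-M1A and of 6.40 to 42.2 CPM in OS-LM1. Of the leukocyte and endothelial markers, PTPRC, CD3E, PECAM1, VWF and CDH5 had group means below 0.5 CPM throughout, CD14 had group means of 0.261 to 3.27 CPM and CD68 of 80.8 to 350 CPM. These last markers moved with the groups: over sgNTC18, CD14 was higher with shPAX8-1 and shPAX8-2 by log2 fold changes of 2.71 and 2.00 in 786-M1A and 3.13 and 2.43 in OS-LM1, and CD68 was higher by 0.81 with shPAX8-2 in 786-M1A and by 1.88 and 1.49 in OS-LM1. Between the constructs CD68 was lower with shPAX8-1 in 786-M1A (-0.51), and CD14 (0.70) and CD68 (0.39) were higher with it in OS-LM1. Their part in the members' values was not tested. The 786-M1A shPAX8-1 libraries fell into a pair of replicates 1 and 2 and a pair of replicates 3 and 4, with a chi-square per gene of 14.1 and 3.73 within the pairs and of 44.7 to 77.4 between them. Fold changes across all genes also moved with the GC content of the transcript, most in the comparison of constructs in 786-M1A (Spearman's rho of -0.551 across 14144 genes, which are not independent replicates). Values with each library's GC trend removed are therefore given beside many of the calls of named members that they change.

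The hairpins themselves are shown because the lead comparison sets one against the other. Their guide strands are given with the seed, bases 2 to 8, in capitals, and the seeds have different letters. The complement of the shPAX8-1 guide was found in 10 of the 14 PAX8 transcripts of GENCODE v44 and that of the shPAX8-2 guide in 7 of the 14.
shPAX8-1: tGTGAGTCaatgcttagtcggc
shPAX8-2: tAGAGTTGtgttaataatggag

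Some members share a promoter sequence. The members and the other ATF4 pathway genes were chosen by symbol as genes of this response. Their share of the motif is therefore not independent of that choice. ATF4 with a C/EBP partner binds a composite element, the C/EBP-ATF response element, searched here on both strands as TGATGNAA. In the RefSeq promoters of GRCh38.p14, which run from 250 bases before to 50 bases after each annotated start, the letters occurred in 1270 of 35116 promoters (3.62%), and 1217 of 27305 genes had at least 1 promoter with them (4.46%). Of the 35 members, 30 matched a promoter entry and 10 of these held the motif (33.3%). The share was 7 of 14 among the cytosolic synthetases (50.0%), 1 of 5 among the regulators, 1 of 5 among the amino acid enzymes and 1 of 6 among the effectors. PSPH, LARS, YARS, VARS and DARS had no promoter entry. Among genes that are no members, 7 of 18 other ATF4 pathway genes held it (38.9%), against 1 of 14 mitochondrial synthetases (7.14%) and 0 of 5 further cytosolic subunits and scaffolds. A match is a description of these letters and not a measured binding site.

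The 10 windows are printed to show where the letters lie and what surrounds them, since the search itself fixed the letters of the motif other than N. Each is 30 bases long, read 5′ to 3′ on the strand that carries the motif, with the motif in capitals. Position 1 is the annotated start and -1 the base before it.
CEBPG: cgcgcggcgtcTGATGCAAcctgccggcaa
ASNS: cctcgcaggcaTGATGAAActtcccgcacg
CHAC1: cctggcaggagTGATGCAAcggcaggggag
AARS: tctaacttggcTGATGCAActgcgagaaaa
CARS: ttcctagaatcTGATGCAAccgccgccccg
GARS: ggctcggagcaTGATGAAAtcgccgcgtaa
IARS: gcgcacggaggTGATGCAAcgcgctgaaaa
MARS: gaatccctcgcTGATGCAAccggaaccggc
NARS: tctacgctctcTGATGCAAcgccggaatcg
TARS: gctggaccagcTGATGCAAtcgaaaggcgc

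These windows lie at chr19:33374060-33374089 (plus strand) for CEBPG, chr7:97872458-97872487 (minus) for ASNS, chr15:40953251-40953280 (minus) for CHAC1 and chr16:70289675-70289704 (plus) for AARS. Those of the other synthetases lie at chr11:3057407-3057436 (plus) for CARS, chr7:30594834-30594863 (minus) for GARS, chr9:92293692-92293721 (plus) for IARS, chr12:57488053-57488082 (minus) for MARS, chr18:57621804-57621833 (minus) for NARS and chr5:33440956-33440985 (minus) for TARS. The capitals read TGATGCAA in 8 of the genes and TGATGAAA in ASNS and GARS. The motif lay on the strand of the gene in CEBPG, ASNS and NARS and on the opposite strand in the other 7. Counted along the gene, its first base lay at positions -42 (CEBPG), -68 (ASNS), -209 (CHAC1), -187 (AARS), -2 (CARS), -33 (GARS), -13 (IARS), -4 (MARS), 15 (NARS) and 3 (TARS). In the synthetases other than AARS the element was thus close to the start of the promoter entry that held it. The annotated gene begins further upstream than that start in GARS (30594735), TARS (33440696), CEBPG and ASNS. The positions there depend on the start used.

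Compared per length as TPM, the transcript abundance scaled for length and library, ATF4 was the most abundant member, with a median of 705 TPM over the 24 libraries and a range of 537 to 934 TPM. GARS, which charges glycine, followed at a median of 190 TPM, then the secreted stress cytokine GDF15 at 165, KARS at 147 and SARS at 144 TPM. At the low end were CHAC1 at 6.73 TPM, CBS at 3.91 TPM and CTH at 3.34 TPM. The ATF4 range did not overlap that of any other member, while the ranges of GARS (123 to 270 TPM), GDF15 (81.7 to 394 TPM), KARS (107 to 196 TPM) and SARS (117 to 211 TPM) overlapped one another. The ranges of CBS (1.19 to 10.2 TPM) and CTH (1.59 to 32.1 TPM) overlapped as well. PHGDH, the first enzyme of serine synthesis from glycolysis, had 0 counts in all 12 libraries of 786-M1A and group means of 3.40 to 7.27 CPM in OS-LM1.

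**Figure D1:**
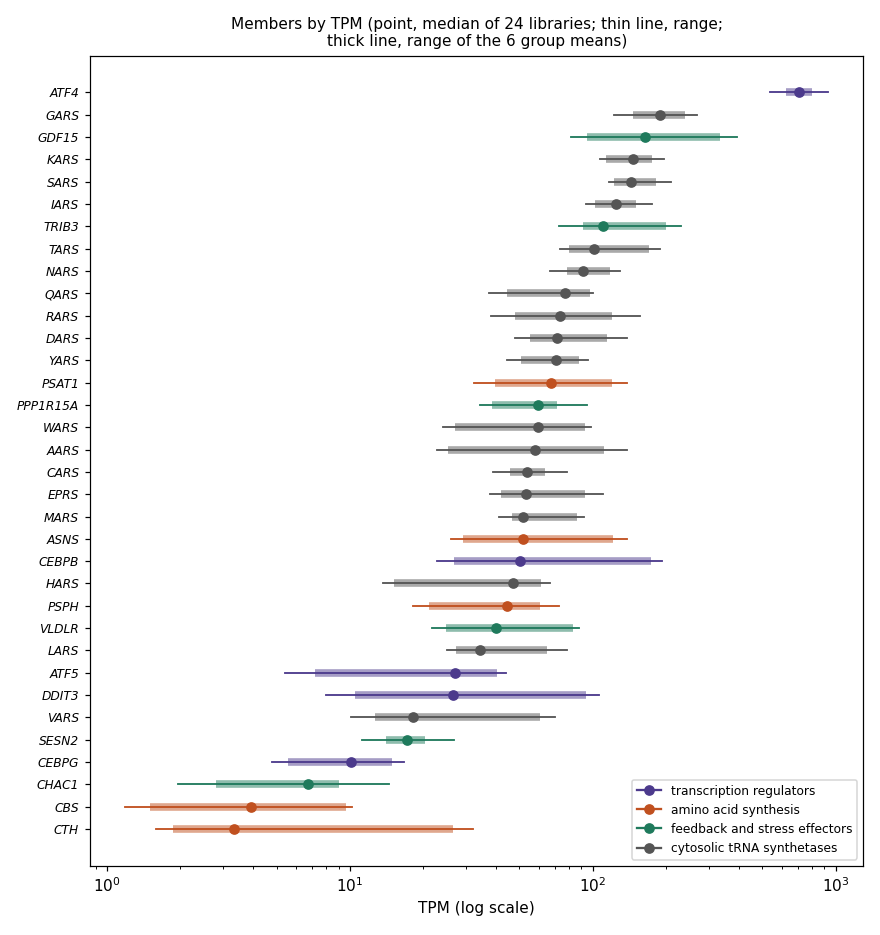
TPM of the members on a log scale, ordered by the median over 24 libraries (point), with the range over libraries (thin line) and over the 6 group means (thick line). PHGDH is left out because it was 0 in 786-M1A. ATF4 stands alone at a median of 705 TPM, and CTH, at a median of 3.34 TPM, has among the widest ranges.

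In 786-M1A, most members that differed between the constructs were higher with shPAX8-1 than with shPAX8-2, and the difference took in regulators, amino acid enzymes and synthetases. Of the 34 members tested there, 19 were higher with shPAX8-1, against a background of 24.2% of all 14452 genes tested, 3 were lower, against 22.9%, and 12 did not pass an adjusted p of 0.05. Their median log2 fold change was 0.42, and that of all genes was -0.02. In OS-LM1 8 of the 35 members were higher with shPAX8-1, against a background of 12.4% of 15049 genes, 4 were lower, against 16.7%, and 23 did not pass. The median was 0.10 there and -0.03 over all genes. DDIT3, CEBPB, ASNS, PSAT1 and WARS were higher with shPAX8-1 in both lines, which is 5 of the 19 in 786-M1A and 5 of the 8 in OS-LM1. QARS was lower in both lines, 1 of the 3 and 1 of the 4, and VLDLR was higher in 786-M1A and lower in OS-LM1. The share of all genes called the same way in both lines was not computed, so these overlaps have no background to be read against.

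These counts moved in both directions with the GC trend and with the libraries used. With the GC trend removed the counts became 27 higher and 1 lower in 786-M1A and 11 higher and 5 lower in OS-LM1. Over all 14144 genes of that setting, 3561 were higher and 3168 lower in 786-M1A, against 3500 and 3303 of 14452 in the main fit. In OS-LM1 2122 and 3084 of 14710 were called, against 1859 and 2519 of 15049 in the main fit. With only replicates 1 and 2 of shPAX8-1, 18 members were higher in 786-M1A and the other 16 did not pass, and with only replicates 3 and 4, 21 were higher and 5 lower. The same fits called 1905 genes higher and 1964 lower, and 4430 higher and 4618 lower, over all genes. The count of lower members in 786-M1A was 1 without shPAX8-1 replicate 3 or without its replicate 4, where 2551 and 2559 of all genes were lower. In OS-LM1 it was 2 without shPAX8-2 replicate 3, where 1878 of all genes were lower. A fit of all 24 libraries gave 9 higher and 2 lower in OS-LM1, beside 1790 and 1835 over all genes.

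**Figure D2:**
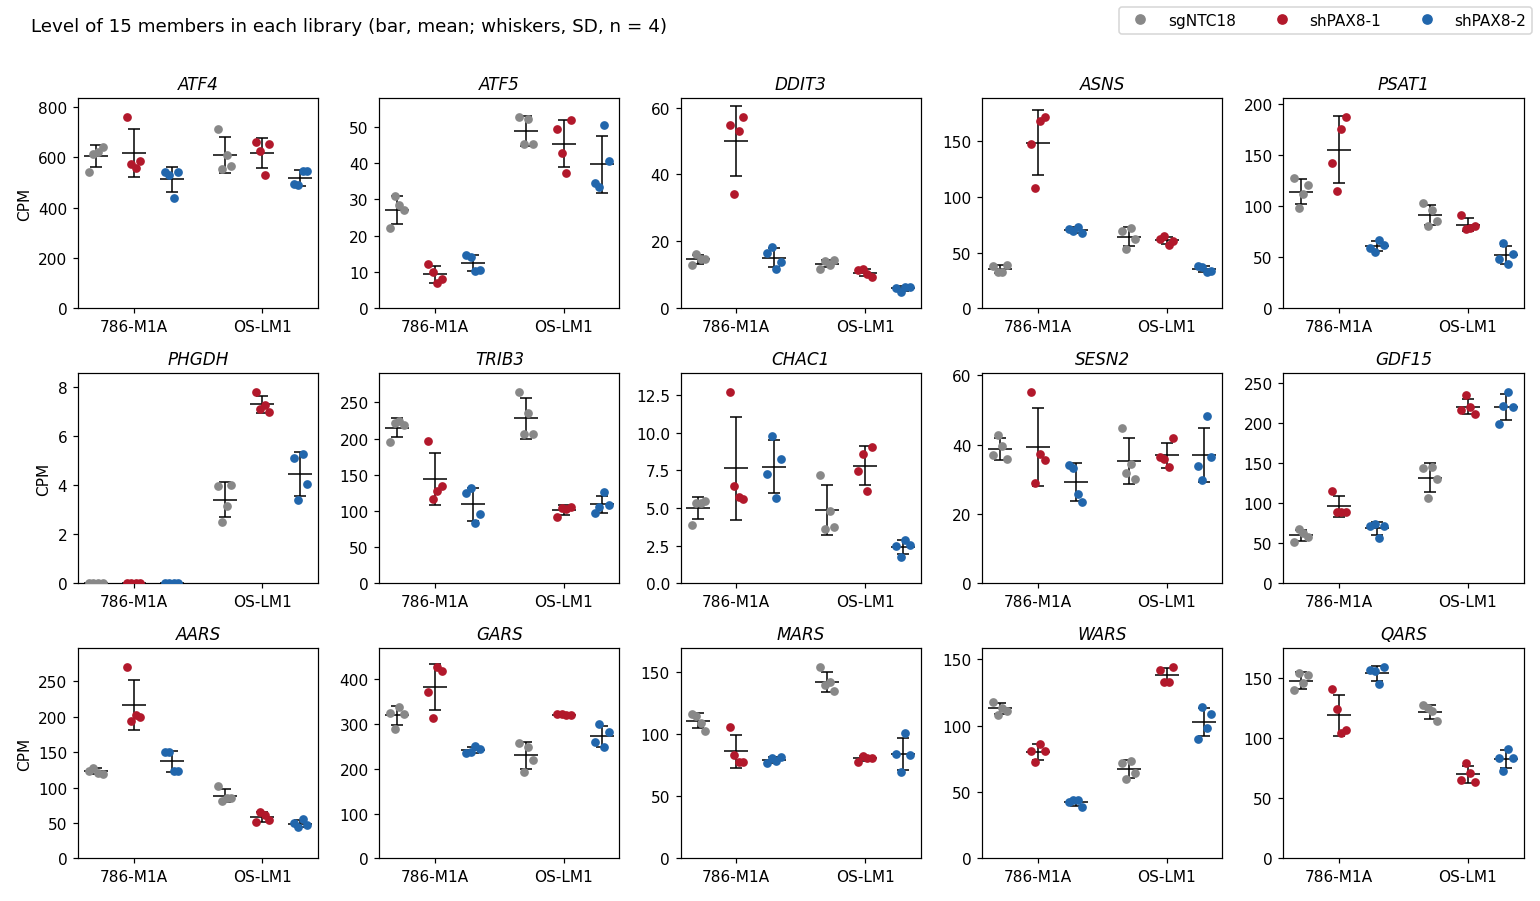
Level in CPM (linear axes from 0) of the members named in every group, 1 panel per gene, with a point for each library and a bar for the mean of the 4 libraries of a group. DDIT3 and ASNS in 786-M1A stand higher with shPAX8-1 than with the other constructs, and CHAC1 in OS-LM1 is lowest with shPAX8-2.

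Among the regulators, ATF4 itself did not pass the test between the constructs in either line. In 786-M1A it was measured at 761, 573, 560 and 584 CPM with shPAX8-1, 541, 529, 439 and 544 CPM with shPAX8-2 and 543, 613, 623 and 640 CPM with sgNTC18. The ranges of the constructs did not overlap, but the difference did not pass the test (log2 fold change 0.27 ± 0.11 SE, adjusted p = 0.0573). It passed with the GC trend removed (0.64 on the log2 scale, adjusted p = 6.0e-06). In OS-LM1 the levels were 661, 627, 530 and 652 CPM with shPAX8-1, 494, 491, 545 and 547 CPM with shPAX8-2 and 712, 556, 610 and 564 CPM with sgNTC18. The ranges of the constructs overlapped there (log2 fold change 0.22 ± 0.09 SE, adjusted p = 0.0808), and removing the GC trend again gave a call (0.30 on the log2 scale, adjusted p = 0.00963).

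DDIT3, which encodes the pro-apoptotic factor CHOP, showed the largest rise of any member between the constructs in 786-M1A. It was measured there at 54.9, 34.3, 53.1 and 57.2 CPM with shPAX8-1, 16.5, 18.2, 11.7 and 13.9 CPM with shPAX8-2 and 12.9, 16.3, 14.6 and 14.6 CPM with sgNTC18. All shPAX8-1 libraries stood above all other libraries of the line, and shPAX8-2 and sgNTC18 overlapped (log2 fold change 1.72 ± 0.17 SE, adjusted p = 6.7e-06 for shPAX8-1 against shPAX8-2). In OS-LM1 DDIT3 was at 11.5, 11.6, 10.2 and 9.30 CPM with shPAX8-1, 5.95, 4.72, 6.43 and 6.44 CPM with shPAX8-2 and 11.8, 14.1, 13.0 and 14.3 CPM with sgNTC18. The difference between the constructs had the same direction (log2 fold change 0.81 ± 0.13 SE, adjusted p = 1.2e-04), but here shPAX8-2 was the group that stood apart at the low end. DDIT3 and MARS lie on opposite strands of chromosome 12 and share 68 exonic bases. Exonic bases are also shared on opposite strands by ATF5 with NUP62 (565) and IL4I1 (75), YARS with S100PBP (396), WARS with WDR25 (272), HARS with HARS2 (86), DDIT3 with MBD6 (58) and AARS with DDX19B (43). On the same strand HARS shares 176 with DND1, and DDIT3 shares 105 with an unnamed gene. Whether the counting used strand is not given in the sources used here, so reads in these stretches could belong to either gene.

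CEBPB, a C/EBP partner of ATF4 and a regulator of inflammatory genes, was at 236, 181, 222 and 211 CPM with shPAX8-1, 126, 138, 105 and 122 CPM with shPAX8-2 and 43.7, 53.0, 45.6 and 42.0 CPM with sgNTC18 in 786-M1A. None of the 3 groups overlapped, and shPAX8-1 was above shPAX8-2 (log2 fold change 0.79 ± 0.11 SE, adjusted p = 1.1e-04). In OS-LM1 the levels were 62.9, 76.6, 71.4 and 67.4, 57.3, 42.4, 58.6 and 45.9 and 32.8, 27.2, 32.1 and 37.1 CPM in the same order of groups, again without overlap (log2 fold change 0.42 ± 0.11 SE, adjusted p = 0.00941 between the constructs). CEBPG, another C/EBP partner and itself a carrier of the promoter motif, was at 21.0, 20.6, 32.8 and 29.3 CPM with shPAX8-1 and 12.1, 10.7, 11.8 and 14.5 CPM with shPAX8-2 in 786-M1A. It rose with shPAX8-1 (log2 fold change 1.08 ± 0.17 SE, adjusted p = 2.1e-04), with replicates 3 and 4 above replicates 1 and 2. In OS-LM1 the CEBPG ranges of the constructs overlapped (log2 fold change 0.17 ± 0.12 SE, adjusted p = 0.326). ATF5, a relative of ATF4 that is also controlled by translation, was at 12.3, 9.89, 6.92 and 8.12 CPM with shPAX8-1, 14.6, 14, 10.3 and 10.5 CPM with shPAX8-2 and 22, 31.0, 28.4 and 27.1 CPM with sgNTC18 in 786-M1A. It was thus lowest in the groups with a hairpin, with overlapping constructs (log2 fold change -0.41 ± 0.19 SE, adjusted p = 0.084, and 0.04 with the GC trend removed). In OS-LM1 ATF5 was at 49.3, 42.9, 37.3 and 51.8, 34.4, 33.4, 50.5 and 40.6 and 52.7, 45.2, 52.2 and 45.2 CPM, and its 3 ranges overlapped (log2 fold change 0.15 ± 0.12 SE, adjusted p = 0.382 between the constructs). The difference passed once the GC trend was removed (0.28 on the log2 scale, adjusted p = 0.016).

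Of the amino acid enzymes, 4 of the 5 tested in 786-M1A were higher with shPAX8-1 than with shPAX8-2 and 1 was lower, with a median log2 fold change of 0.87. In OS-LM1, 3 of the 6 were higher, 3 did not pass and the median was 0.52. Of all genes tested, 24.2% were higher and 22.9% lower in 786-M1A, and 12.4% and 16.7% in OS-LM1. ASNS makes asparagine from aspartate and glutamine. It was at 148, 108, 168 and 172 CPM with shPAX8-1, 70.9, 69.3, 73.3 and 67.4 CPM with shPAX8-2 and 37.7, 32.5, 32.2 and 39.2 CPM with sgNTC18 in 786-M1A, so that the groups formed 3 separate steps (log2 fold change 1.09 ± 0.13 SE, adjusted p = 3.4e-05 between the constructs). In OS-LM1 the levels were 62.5, 64.7, 56.8 and 60.6 CPM with shPAX8-1, 38.2, 36.8, 32.4 and 33.7 CPM with shPAX8-2 and 69.5, 53.0, 72.0 and 61.9 CPM with sgNTC18. There shPAX8-1 and sgNTC18 overlapped and shPAX8-2 lay below both (log2 fold change 0.77 ± 0.10 SE, adjusted p = 1.1e-05 between the constructs).

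PSAT1, the middle enzyme of the serine pathway, was at 142, 115, 175 and 187 CPM with shPAX8-1, 59.2, 55.1, 66.5 and 61.6 CPM with shPAX8-2 and 127, 98.0, 112 and 120 CPM with sgNTC18 in 786-M1A. The shPAX8-2 libraries lay below those of both other groups (log2 fold change 1.35 ± 0.14 SE, adjusted p = 8.9e-06 between the constructs). In OS-LM1, where shPAX8-2 was also the lowest, PSAT1 was at 91.1, 77.0, 78.2 and 80.8 CPM with shPAX8-1, 48.1, 63.9, 43.0 and 52.8 CPM with shPAX8-2 and 103, 80.7, 96.0 and 85.6 CPM with sgNTC18 (log2 fold change 0.63 ± 0.11 SE, adjusted p = 3.3e-04 between the constructs). PSPH, which takes the last step to serine, rose with shPAX8-1 in 786-M1A (log2 fold change 0.42 ± 0.10 SE, adjusted p = 0.00365) and had a value of 0.03 ± 0.10 (log2 fold change and SE, adjusted p = 0.854) in OS-LM1. PHGDH had 0 counts in every library of 786-M1A, and a count of 0 over the 4 sgNTC18 libraries allows a level of up to 0.0318 CPM at 3 counts, for counting error only. Its OS-LM1 levels were 7.77, 7.09, 7.23 and 6.98 CPM with shPAX8-1, 5.11, 3.40, 5.26 and 4.03 CPM with shPAX8-2 and 3.94, 2.49, 3.14 and 4.01 CPM with sgNTC18. The sgNTC18 level in OS-LM1 was at least 105-fold higher than that limit (adjusted p = 2.0e-11 by edgeR for the difference between the lines). Within OS-LM1 PHGDH was higher with shPAX8-1 than with shPAX8-2 without overlap (log2 fold change 0.67 ± 0.17 SE, adjusted p = 0.00541).

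CTH and CBS, the enzymes of the transsulfuration route that makes cysteine from methionine, differed between the constructs in opposite directions in 786-M1A. Against sgNTC18 both were called higher with shPAX8-1 and with shPAX8-2 in that line, CTH at 2.96 and 2.09 and CBS at 0.51 and 0.95. CTH was at 39.7, 23.4, 34.3 and 35.1 CPM with shPAX8-1, 18.8, 17.8, 18.1 and 17.9 CPM with shPAX8-2 and 5.01, 3.81, 3.98 and 4.44 CPM with sgNTC18, 3 steps without overlap (log2 fold change 0.87 ± 0.15 SE, adjusted p = 4.1e-04 between the constructs). CBS was at 13.0, 11.4, 9.39 and 9.17, 13.7, 15.4, 13.6 and 15.8 and 7.02, 8.40, 7.38 and 7.86 CPM in the same order and was lower with shPAX8-1 than with shPAX8-2 (log2 fold change -0.44 ± 0.14 SE, adjusted p = 0.0149). That call was lost with the GC trend removed (-0.05 on the log2 scale, adjusted p = 0.692), and CBS is uncertain in any case because a near-identical copy of the gene exists in the assembly. In OS-LM1 both genes were at 4.14 CPM or below in every library, with a value of 0.42 ± 0.17 (log2 fold change and SE, adjusted p = 0.0662) for CTH and 0.34 ± 0.19 (log2 fold change and SE, adjusted p = 0.211) for CBS between the constructs.

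The feedback and stress effectors were mixed, with 2 of 6 higher and 4 not passing in 786-M1A and 1 higher, 1 lower and 4 not passing in OS-LM1. The background was 24.2% higher and 22.9% lower in 786-M1A and 12.4% and 16.7% in OS-LM1. TRIB3, a pseudokinase that restrains ATF4, was at 197, 117, 128 and 134 CPM with shPAX8-1, 125, 132, 83.7 and 96.0 CPM with shPAX8-2 and 195, 221, 224 and 219 CPM with sgNTC18 in 786-M1A. The ranges of the constructs overlapped (log2 fold change 0.40 ± 0.17 SE, adjusted p = 0.0639), and with the GC trend removed the difference passed (0.92 on the log2 scale, adjusted p = 3.8e-05). In OS-LM1 TRIB3 was at 91.5, 104, 103 and 105 CPM with shPAX8-1, 96.8, 106, 126 and 108 CPM with shPAX8-2 and 264, 206, 235 and 206 CPM with sgNTC18. The hairpin groups overlapped each other there and neither overlapped sgNTC18 (log2 fold change -0.14 ± 0.09 SE, adjusted p = 0.281 between the constructs).

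CHAC1, which degrades glutathione, gave the largest difference between the constructs in OS-LM1. It was at 7.48, 8.57, 6.14 and 9.03 CPM with shPAX8-1, 2.45, 1.73, 2.86 and 2.56 CPM with shPAX8-2 and 7.21, 3.63, 4.79 and 3.77 CPM with sgNTC18. The constructs did not overlap (log2 fold change 1.64 ± 0.21 SE, adjusted p = 1.2e-05), and sgNTC18 overlapped shPAX8-1 and lay above shPAX8-2. In 786-M1A it was at 12.7, 6.45, 5.72 and 5.63 CPM with shPAX8-1, 7.28, 9.82, 5.64 and 8.26 CPM with shPAX8-2 and 3.90, 5.31, 5.34 and 5.49 CPM with sgNTC18, where 1 shPAX8-1 library was high and the other 3 lay at the low end of the shPAX8-2 range (log2 fold change -0.03 ± 0.25 SE, adjusted p = 0.935). The sign of that value turned with the GC trend removed (0.44 on the log2 scale, adjusted p = 0.0338). SESN2, a stress-induced inhibitor of mTORC1, was at 55.1, 28.9, 37.3 and 35.4 CPM with shPAX8-1, 34.2, 33.2, 25.7 and 23.5 CPM with shPAX8-2 and 36.9, 42.8, 39.6 and 35.7 CPM with sgNTC18 in 786-M1A. Its constructs overlapped (log2 fold change 0.42 ± 0.18 SE, adjusted p = 0.0642), and the difference passed with the GC trend removed (0.89 on the log2 scale, adjusted p = 1.7e-04). SESN2 was at 36.4, 35.9, 33.5 and 41.9, 33.8, 29.7, 48.1 and 36.5 and 44.9, 31.9, 34.3 and 30.2 CPM in OS-LM1 in the same order, all overlapping (log2 fold change -0.04 ± 0.14 SE, adjusted p = 0.858 between the constructs).

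GDF15 in 786-M1A was at 116, 89.1, 89.6 and 89.4 CPM with shPAX8-1, 71.5, 74.7, 56.0 and 72.1 CPM with shPAX8-2 and 51.8, 68.1, 62.9 and 57.4 CPM with sgNTC18. It rose with shPAX8-1 over shPAX8-2 without overlap (log2 fold change 0.49 ± 0.13 SE, adjusted p = 0.0064). In OS-LM1 it was at 217, 235, 220 and 212 CPM with shPAX8-1, 199, 222, 239 and 220 CPM with shPAX8-2 and 144, 107, 146 and 131 CPM with sgNTC18, and the constructs overlapped (log2 fold change -0.02 ± 0.09 SE, adjusted p = 0.876). VLDLR, a lipoprotein receptor, was at 184, 172, 178 and 168 CPM with shPAX8-1, 145, 146, 145 and 137 CPM with shPAX8-2 and 50.0, 42.7, 50.5 and 50.6 CPM with sgNTC18 in 786-M1A and was the effector that turned between the lines (log2 fold change 0.30 ± 0.09 SE, adjusted p = 0.0116 in 786-M1A and log2 fold change -0.38 ± 0.09 SE, adjusted p = 0.00247 in OS-LM1). The call in 786-M1A was lost with the GC trend removed (0.09 on the log2 scale, adjusted p = 0.403). PPP1R15A, the stress-induced subunit that brings a phosphatase to eIF2, had values of 0.35 ± 0.18 (log2 fold change and SE, adjusted p = 0.122) in 786-M1A and 0.06 ± 0.11 (log2 fold change and SE, adjusted p = 0.736) in OS-LM1.

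**Figure D3:**
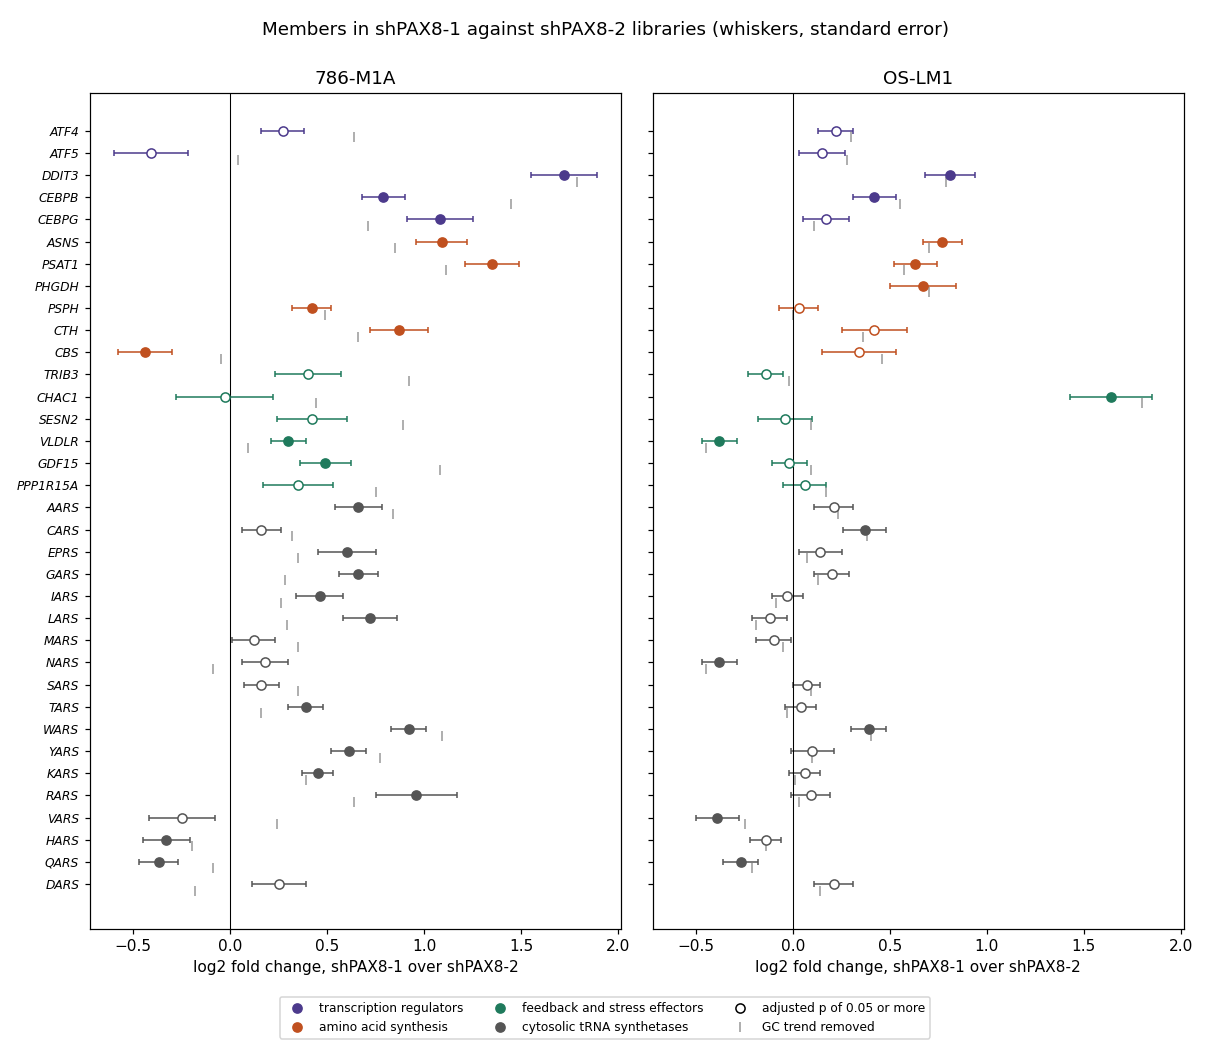
Log2 fold change of shPAX8-1 over shPAX8-2 for each member in each line, with bars of 1 standard error, filled where the adjusted p was under 0.05. In 786-M1A 19 members are filled to the right of 0 and 3 to the left, and in OS-LM1 8 to the right and 4 to the left.

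Of the 18 cytosolic synthetases, 10 were higher in 786-M1A with shPAX8-1 than with shPAX8-2, 2 were lower and 6 did not pass, with a median log2 fold change of 0.42. In OS-LM1 2 were higher, 3 lower and 13 did not pass, with a median of 0.07. The shares over all genes were 24.2% higher and 22.9% lower in 786-M1A and 12.4% and 16.7% in OS-LM1. The OS-LM1 counts of synthetases thus lay near the background. WARS, which charges tryptophan and is also induced by interferon, was the synthetase called higher in both lines. It was at 80.6, 72.3, 86.4 and 81.1 CPM with shPAX8-1, 42.4, 44, 43.8 and 38.7 CPM with shPAX8-2 and 118, 108, 113 and 111 CPM with sgNTC18 in 786-M1A. The hairpin groups both lay below sgNTC18 and did not overlap each other (log2 fold change 0.92 ± 0.09 SE, adjusted p = 5.4e-06 between the constructs). In OS-LM1 WARS was at 142, 133, 133 and 144 CPM with shPAX8-1, 89.7, 114, 98.5 and 109 CPM with shPAX8-2 and 72.0, 59.9, 73.5 and 64.2 CPM with sgNTC18. Both hairpin groups lay above sgNTC18 there, and shPAX8-1 was again the higher (log2 fold change 0.39 ± 0.09 SE, adjusted p = 0.00223 between the constructs).

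AARS, which charges alanine, was at 270, 194, 203 and 200 CPM with shPAX8-1, 150, 150, 124 and 124 CPM with shPAX8-2 and 124, 128, 120 and 119 CPM with sgNTC18 in 786-M1A. It rose with shPAX8-1 over shPAX8-2 without overlap (log2 fold change 0.66 ± 0.12 SE, adjusted p = 5.0e-04). In OS-LM1 it was at 51.4, 66.0, 61.4 and 54.9 CPM with shPAX8-1, 50.0, 44.5, 55.6 and 47.2 CPM with shPAX8-2 and 102, 81.6, 85.2 and 85.1 CPM with sgNTC18, with both hairpin groups below sgNTC18 and overlapping each other (log2 fold change 0.21 ± 0.10 SE, adjusted p = 0.123 between the constructs). That difference passed with the GC trend removed (0.23 on the log2 scale, adjusted p = 0.0385). GARS was at 372, 312, 426 and 417 CPM with shPAX8-1, 236, 238, 251 and 243 CPM with shPAX8-2 and 325, 288, 338 and 323 CPM with sgNTC18 in 786-M1A. The shPAX8-2 libraries were the lowest of the line (log2 fold change 0.66 ± 0.10 SE, adjusted p = 1.9e-04 between the constructs). In OS-LM1 GARS was at 321, 321, 319 and 319 CPM with shPAX8-1, 260, 299, 248 and 282 CPM with shPAX8-2 and 258, 193, 249 and 219 CPM with sgNTC18, where the constructs did not overlap but the difference did not pass (log2 fold change 0.20 ± 0.09 SE, adjusted p = 0.101).

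MARS, which charges methionine and carries the motif beside its start, was at 106, 83.6, 77.8 and 77.4 CPM with shPAX8-1, 76.7, 81.2, 78.6 and 81.6 CPM with shPAX8-2 and 116, 115, 109 and 103 CPM with sgNTC18 in 786-M1A. The constructs overlapped (log2 fold change 0.12 ± 0.11 SE, adjusted p = 0.38), and the difference passed with the GC trend removed (0.35 on the log2 scale, adjusted p = 8.0e-04). In OS-LM1 MARS was at 78.0, 82.6, 81.3 and 81.3, 83.8, 69.7, 101 and 83.6 and 154, 140, 142 and 135 CPM, with both hairpin groups below sgNTC18 and overlapping each other (log2 fold change -0.10 ± 0.09 SE, adjusted p = 0.474 between the constructs). QARS, which charges glutamine, went the other way from most synthetases. It was at 141, 124, 104 and 107 CPM with shPAX8-1, 157, 156, 145 and 159 CPM with shPAX8-2 and 140, 154, 146 and 153 CPM with sgNTC18 in 786-M1A and lower with shPAX8-1 than with shPAX8-2 without overlap (log2 fold change -0.37 ± 0.10 SE, adjusted p = 0.00849). This call was lost with the GC trend removed (-0.09 on the log2 scale, adjusted p = 0.218). In OS-LM1 QARS was at 65.1, 79.6, 71.3 and 63.5 CPM with shPAX8-1, 83.3, 72.6, 91.0 and 83.3 CPM with shPAX8-2 and 128, 125, 123 and 114 CPM with sgNTC18, and was lower with shPAX8-1 with overlapping ranges (log2 fold change -0.27 ± 0.09 SE, adjusted p = 0.0304).

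The synthetase RARS, which charges arginine, rose in 786-M1A with a wide spread. It was at 99.4, 111, 191 and 196 CPM with shPAX8-1 and 69.2, 65.0, 94.6 and 78.0 CPM with shPAX8-2 (log2 fold change 0.96 ± 0.21 SE, adjusted p = 0.0021), with replicates 3 and 4 of shPAX8-1 far above replicates 1 and 2. LARS, which charges leucine, showed the same split at 140, 157, 219 and 219 CPM with shPAX8-1 against 109, 104, 125 and 109 CPM with shPAX8-2 (log2 fold change 0.72 ± 0.14 SE, adjusted p = 0.00108). The other synthetases that rose in 786-M1A were YARS, EPRS, IARS, KARS and TARS, with log2 fold changes of 0.39 (TARS) to 0.61 (YARS). Between the constructs in 786-M1A HARS was lower with shPAX8-1 (log2 fold change -0.33 ± 0.12 SE, adjusted p = 0.0322), a call that was lost with the GC trend removed (-0.20 on the log2 scale, adjusted p = 0.119). CARS, NARS, SARS, VARS and DARS did not pass there, with log2 fold changes of -0.25 (VARS) to 0.25 (DARS). In OS-LM1 CARS, which charges cysteine, was higher with shPAX8-1 (log2 fold change 0.37 ± 0.11 SE, adjusted p = 0.0132), while VARS (log2 fold change -0.39 ± 0.11 SE, adjusted p = 0.0107) and NARS (log2 fold change -0.38 ± 0.09 SE, adjusted p = 0.00296) were lower.

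EPRS, IARS, LARS, MARS, QARS, KARS, RARS and DARS belong to the multi-synthetase complex, a cytosolic assembly held together by scaffold proteins. Of these 8, 5 were higher with shPAX8-1 in 786-M1A, QARS was lower and 2 did not pass, with a median of 0.45. In OS-LM1 QARS was lower and the other 7 did not pass, with a median of 0.02. The background shares were 24.2% higher and 22.9% lower in 786-M1A and 12.4% and 16.7% in OS-LM1.

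Genes outside the members were read from lists of the same pathway. Between the constructs 24.2% of all genes were higher and 22.9% lower in 786-M1A, and 12.4% and 16.7% in OS-LM1. Of 6 genes for eIF2, its kinases and the constitutive phosphatase subunit, 5 were higher in 786-M1A with shPAX8-1 than with shPAX8-2 and 1 did not pass, led by the endoplasmic reticulum stress kinase EIF2AK3 (log2 fold change 0.88 ± 0.19 SE, adjusted p = 0.00215) and the double-stranded RNA kinase EIF2AK2 (log2 fold change 0.75 ± 0.15 SE, adjusted p = 0.00119). Against sgNTC18 in that line, EIF2AK3 was called higher and EIF2AK2 lower with both constructs. Between the constructs in OS-LM1 1 was higher, the amino acid sensor EIF2AK4 (log2 fold change 0.28 ± 0.07 SE, adjusted p = 0.00772), and 1 lower, EIF2AK3 (log2 fold change -0.51 ± 0.10 SE, adjusted p = 0.0011). Of 26 other ATF4 pathway genes, 12 were higher and 2 lower in 786-M1A, led by the cystine transporter SLC7A11 (log2 fold change 2.01 ± 0.21 SE, adjusted p = 7.2e-06) and by KLHL24 (log2 fold change 1.32 ± 0.20 SE, adjusted p = 1.8e-04). The lower ones were TNFRSF10B (log2 fold change -0.47 ± 0.09 SE, adjusted p = 6.1e-04), a death receptor, and PYCR1 (log2 fold change -0.46 ± 0.18 SE, adjusted p = 0.0429), an enzyme of proline synthesis, whose call was lost with the GC trend removed (0.05 on the log2 scale, adjusted p = 0.559). In OS-LM1 7 of the 26 were higher, led by STC2 (log2 fold change 0.77 ± 0.10 SE, adjusted p = 6.7e-06) and NUPR1 (log2 fold change 0.72 ± 0.13 SE, adjusted p = 2.9e-04), and 5 lower, led by the leucine transporter SLC7A5 (log2 fold change -0.80 ± 0.14 SE, adjusted p = 2.4e-04) and TNFRSF10B (log2 fold change -0.55 ± 0.09 SE, adjusted p = 9.8e-05).

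Further parts of the tRNA charging machinery were read in the same way, against background shares of 24.2% higher and 22.9% lower in 786-M1A and 12.4% and 16.7% in OS-LM1. Of 5 other cytosolic subunits and scaffolds, 4 were higher with shPAX8-1 in 786-M1A and 1 did not pass, led by the scaffold EEF1E1 (log2 fold change 0.85 ± 0.24 SE, adjusted p = 0.0106) and the phenylalanine subunit FARSB (log2 fold change 0.64 ± 0.16 SE, adjusted p = 0.00508). Removing the GC trend left 2 of the 5 higher, beside 3561 of all 14144 genes, and EEF1E1 no longer passed (0.36 on the log2 scale, adjusted p = 0.0504). In OS-LM1 the 5 had a median of 0.03 and did not pass. Of the 17 mitochondrial synthetases, which are not part of the cytosolic set, 4 were higher, near the background share, and 6 lower in 786-M1A, with a median of -0.06. They were led by NARS2 (log2 fold change 0.96 ± 0.17 SE, adjusted p = 5.6e-04) and YARS2 (log2 fold change 0.50 ± 0.18 SE, adjusted p = 0.0307) among those higher and by AARS2 (log2 fold change -1.42 ± 0.17 SE, adjusted p = 3.1e-05) and VARS2 (log2 fold change -0.49 ± 0.18 SE, adjusted p = 0.0343) among those lower, and VARS2 lost its call with the GC trend removed (-0.03 on the log2 scale, adjusted p = 0.782). In OS-LM1 1 was higher, IARS2 (log2 fold change 0.36 ± 0.09 SE, adjusted p = 0.00342), and 1 lower, AARS2 (log2 fold change -0.48 ± 0.17 SE, adjusted p = 0.0433), which was not called with the GC trend removed (-0.36 on the log2 scale, adjusted p = 0.0907).

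The GC content of the longest transcript ranged from 37.9% (LARS) to 66.2% (CEBPB) among the members, with 13 members under 45%, 12 between 45% and 55% and 10 at 55% or more. In 786-M1A the median log2 fold change of shPAX8-1 over shPAX8-2 across all genes fell from 0.63 at 30 to 35% GC to -0.59 at 65 to 70% GC. LARS and RARS are on the GC-poor side, and their log2 fold changes were 0.29 and 0.64 with the trend removed. GDF15 and CEBPB are GC-rich and had values of 1.08 and 1.45 with the trend removed. DDIT3 and PSAT1, at 49.7% and 42.5% GC, had values of 1.79 and 1.11. The members that gained a call in the higher direction were ATF4, TRIB3, CHAC1, SESN2, PPP1R15A, CARS, MARS, SARS and VARS, VLDLR lost one, and DARS became lower (-0.18 on the log2 scale, adjusted p = 0.0239). What the trend rests on was not tested.

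**Figure D4:**
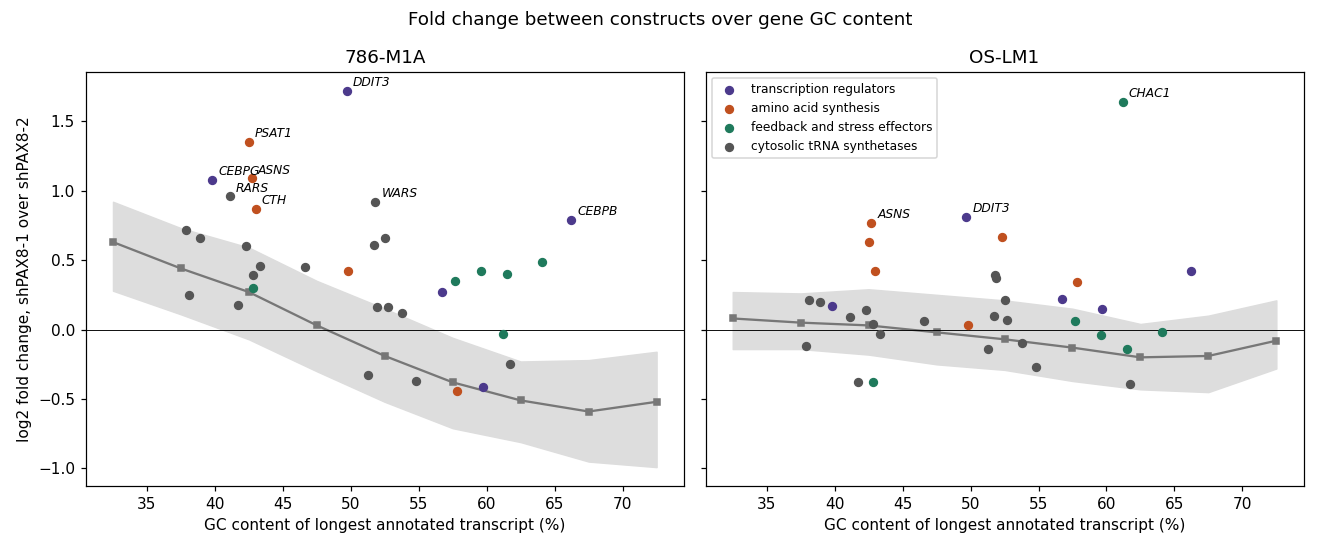
Log2 fold change of shPAX8-1 over shPAX8-2 in 786-M1A (vertical) against the GC content of the longest transcript (horizontal, percent), for the members (points) and as the median over all genes in bins of GC content (line). The line falls from 0.63 to -0.59 between the GC-poor and the GC-rich bins, and DDIT3, PSAT1, ASNS and CEBPB lie above it.

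The difference between the constructs was smaller in OS-LM1 than in 786-M1A for many members. In a fit of all 24 libraries the difference of differences, OS-LM1 minus 786-M1A, was positive and called for 2 of 35 members, against a background of 12.7% of 15665 genes, negative for 15, against 14.5%, and not called for 18, among them PHGDH, for which it could not be estimated. The median over the members was -0.36 and over all genes 0.02. The positive members were CHAC1 (log2 fold change 1.70 ± 0.35 SE, adjusted p = 8.6e-04) and CBS (log2 fold change 0.81 ± 0.22 SE, adjusted p = 0.00701). Among the negative were DDIT3 (log2 fold change -0.88 ± 0.22 SE, adjusted p = 0.00367), CEBPG (log2 fold change -0.88 ± 0.21 SE, adjusted p = 0.00276), PSAT1 (log2 fold change -0.69 ± 0.19 SE, adjusted p = 0.0071), RARS (log2 fold change -0.84 ± 0.24 SE, adjusted p = 0.0112), LARS (log2 fold change -0.81 ± 0.17 SE, adjusted p = 9.9e-04) and WARS (log2 fold change -0.50 ± 0.12 SE, adjusted p = 0.00414). ASNS did not pass (log2 fold change -0.29 ± 0.17 SE, adjusted p = 0.213), nor did ATF4 (log2 fold change -0.02 ± 0.15 SE, adjusted p = 0.944), which was called negative with the GC trend removed (-0.34 on the log2 scale, adjusted p = 0.0287). With the GC trend removed the counts were 2 positive and 21 negative, and CBS (0.52 on the log2 scale, adjusted p = 0.0589) and GARS (-0.16 on the log2 scale, adjusted p = 0.349) were no longer called. Among all genes that setting gave 1981 positive and 2926 negative, against 1993 and 2271 in the main fit. PAX8 itself also differed between the constructs in 786-M1A, and its part in the difference between the lines was not tested.

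Against sgNTC18 the members moved both ways. The comparisons of shPAX8-1 and of shPAX8-2 with sgNTC18 use the same sgNTC18 libraries in each line, so their values are set side by side without an overlap. In 786-M1A 20 of 34 members were higher with shPAX8-1 than with sgNTC18, against a background of 36.1%, and 8 were lower, against 34.5%, with a median log2 fold change of 0.36 (0.03 over all genes). With shPAX8-2 11 were higher, against 31.5%, and 13 lower, against 30.9%, with a median of 0.01 (0.02 over all genes). In OS-LM1 15 of 35 were higher with shPAX8-1, against 35.6%, and 10 lower, against 35.8%, with a median of 0.04 (-0.01 over all genes). There, 14 were higher and 15 lower with the GC trend removed, beside 5254 higher and 5415 lower of all 14710 genes. With shPAX8-2 13 were higher, against 34.3%, and 17 lower, against 34.1%, with a median of -0.22 (-0.01 over all genes). The last split was 8 higher and 18 lower without sgNTC18 replicate 2 and 7 higher and 18 lower without the filter on low counts. Among all genes these settings gave 4943 higher and 4899 lower, and 5117 higher and 5499 lower. Most genes tested were called in these comparisons, so a call alone says little about a member.

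**Figure D5:**
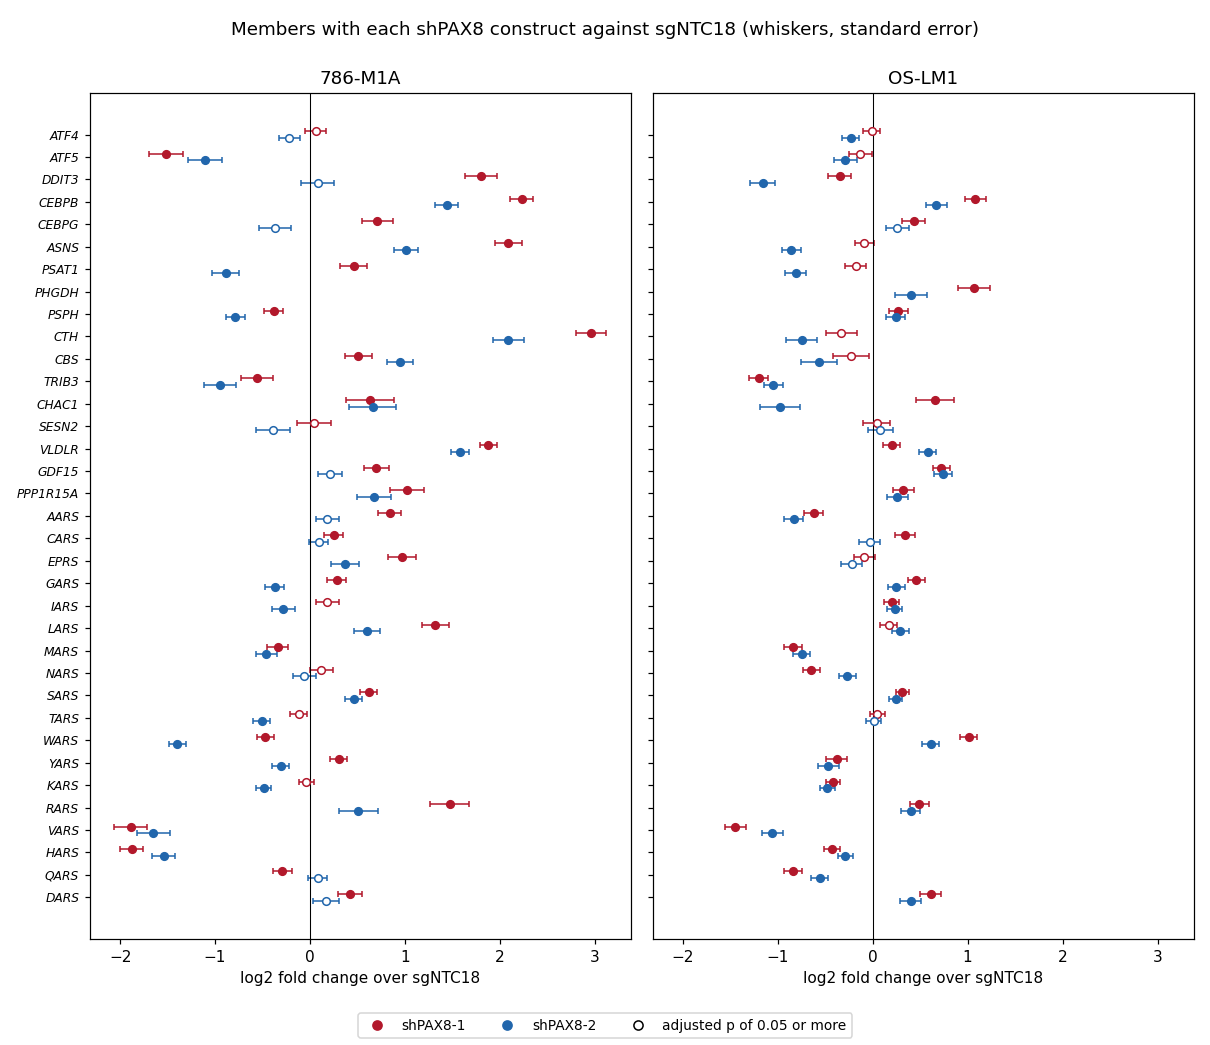
Log2 fold change of each member over sgNTC18 with shPAX8-1 and with shPAX8-2, by line, with bars of 1 standard error, open where the adjusted p was 0.05 or more. In 786-M1A CTH lies farthest to the right, followed by CEBPB, ASNS and VLDLR with shPAX8-1 and by VLDLR and CEBPB with shPAX8-2. VARS and HARS lie farthest to the left there. In OS-LM1 CEBPB, PHGDH and WARS lie to the right and VARS and TRIB3 to the left.

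Among the regulators CEBPB was higher than sgNTC18 with both constructs in both lines, by log2 fold changes of 2.23 and 1.44 in 786-M1A and 1.08 and 0.67 in OS-LM1. ATF5 was lower with both constructs in 786-M1A, at -1.52 and -1.11. In OS-LM1 its values were -0.13 ± 0.12 (log2 fold change and SE, adjusted p = 0.341) and -0.29 ± 0.12 (log2 fold change and SE, adjusted p = 0.045), and the second call was lost with the GC trend removed, where the first became 0.31 on the log2 scale, adjusted p = 0.00317. DDIT3 was higher with shPAX8-1 in 786-M1A (log2 fold change 1.80 ± 0.17 SE, adjusted p = 2.5e-07) and lower with both constructs in OS-LM1, at -0.35 and -1.16. ATF4 passed in 1 of the 4 comparisons, with shPAX8-2 in OS-LM1 (log2 fold change -0.23 ± 0.09 SE, adjusted p = 0.0343), and that value became 0.05 on the log2 scale, adjusted p = 0.606 with the GC trend removed. With shPAX8-1 in 786-M1A ATF4 was at 0.06 on the log2 scale, which became 0.48 on the log2 scale, adjusted p = 2.8e-05 and was thus called with the trend removed. In OS-LM1 it was at -0.01 with shPAX8-1, which became 0.35 and was called with the trend removed.

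CTH had log2 fold changes over sgNTC18 above those of the other members in 786-M1A, except that with the GC trend removed CEBPB was at 2.96 and CTH at 2.66 with shPAX8-1. The CTH values were 2.96 ± 0.16 (log2 fold change and SE, adjusted p = 8.5e-10) with shPAX8-1 and 2.09 ± 0.16 (log2 fold change and SE, adjusted p = 4.9e-08) with shPAX8-2 in 786-M1A, against -0.33 ± 0.16 (log2 fold change and SE, adjusted p = 0.071) and -0.75 ± 0.16 (log2 fold change and SE, adjusted p = 4.3e-04) in OS-LM1. With the GC trend removed the former of the OS-LM1 values was called lower as well (-0.54 on the log2 scale, adjusted p = 0.00385). ASNS was higher with both constructs in 786-M1A, at 2.09 and 1.01, and lower with shPAX8-2 in OS-LM1 (log2 fold change -0.86 ± 0.10 SE, adjusted p = 2.6e-07). With shPAX8-1 in OS-LM1 it was at -0.09 and not called. That value became -0.31 and was called lower with the GC trend removed (adjusted p = 0.00457). PSAT1 was lower with shPAX8-2 in both lines, at -0.89 and -0.81. With shPAX8-1 it was called higher in 786-M1A, at 0.46, a call lost with the GC trend removed (0.12). In OS-LM1 it was at -0.18 with shPAX8-1 and not called, and was called lower with the trend removed (-0.42, adjusted p = 6.1e-04). PSPH was lower with both constructs in 786-M1A, at -0.38 and -0.79, and higher with both in OS-LM1, at 0.27 and 0.24. PHGDH was higher with both in OS-LM1, at 1.07 and 0.40.

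TRIB3 was lower than sgNTC18 with both constructs in both lines, at -0.56 and -0.95 in 786-M1A and -1.20 and -1.05 in OS-LM1, except that the first became 0.04 and lost its call with the GC trend removed. VLDLR was higher with both constructs in 786-M1A, at 1.88 and 1.58, and in OS-LM1 at 0.20, a call lost with the GC trend removed, and 0.58. GDF15 was higher with both in OS-LM1, at 0.72 and 0.74, and with shPAX8-1 in 786-M1A (log2 fold change 0.70 ± 0.13 SE, adjusted p = 1.5e-04). With shPAX8-2 in 786-M1A GDF15 was at 0.21 and not called, and with the GC trend removed it was called higher (0.29, adjusted p = 0.018). CHAC1 was higher with both in 786-M1A, at 0.63 and 0.66 (adjusted p = 0.0368 and 0.0351). In the shPAX8-1 group there, 1 library was at 12.7 CPM and the next at 6.45 CPM, while sgNTC18 reached 5.49 CPM. In OS-LM1 CHAC1 was higher with shPAX8-1 (log2 fold change 0.66 ± 0.20 SE, adjusted p = 0.00589) and lower with shPAX8-2 (log2 fold change -0.98 ± 0.21 SE, adjusted p = 4.6e-04). SESN2 passed in none of the 4, with log2 fold changes of -0.39 to 0.08, although with the GC trend removed it was called higher in 3 of them.

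The synthetases split by gene rather than as a block. VARS, which charges valine, was lower than sgNTC18 in all 4 comparisons, at -1.89 and -1.65 in 786-M1A and -1.45 and -1.06 in OS-LM1. HARS, which charges histidine, was lower in all 4 as well, at -1.88 and -1.54 in 786-M1A and -0.43 and -0.29 in OS-LM1, the last of which was not called with the GC trend removed. RARS was higher in all 4, at 1.47, 0.51, 0.49 and 0.40, and so was SARS, which charges serine, at 0.62, 0.46, 0.31 and 0.24. MARS was lower in all 4, at -0.34, -0.46, -0.84 and -0.75, with the first losing its call with the GC trend removed. WARS was lower with both constructs in 786-M1A, at -0.47 and -1.40, and higher with both in OS-LM1, at 1.01 and 0.61. AARS was higher with shPAX8-1 in 786-M1A (log2 fold change 0.84 ± 0.12 SE, adjusted p = 1.1e-05) and lower with both constructs in OS-LM1, at -0.62 and -0.83. With shPAX8-2 in 786-M1A AARS was at 0.18 and not called, and with the GC trend removed it was called higher (0.20, adjusted p = 0.0394). QARS was lower with both in OS-LM1, at -0.84 and -0.56, and its value with shPAX8-1 in 786-M1A (log2 fold change -0.29 ± 0.10 SE, adjusted p = 0.0178) turned to 0.03 with the GC trend removed. GARS was at 0.28 with shPAX8-1 in 786-M1A and at 0.25 with shPAX8-2 in OS-LM1, values that became -0.19 and -0.02 with the GC trend removed. With shPAX8-1 in OS-LM1 GARS was called higher, at 0.46, a call lost with the trend removed (0.11). With shPAX8-2 in 786-M1A it was lower, at -0.37.

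In the other lists the values against sgNTC18 also ran both ways. Their counts are to be read beside the background shares of all genes, given as higher and lower. These were 36.1% and 34.5% with shPAX8-1 and 31.5% and 30.9% with shPAX8-2 in 786-M1A. In OS-LM1 they were 35.6% and 35.8% with shPAX8-1 and 34.3% and 34.1% with shPAX8-2. Of the 26 other ATF4 pathway genes, 15 were higher and 6 lower with shPAX8-1 in 786-M1A, 12 and 4 with shPAX8-2, 9 and 12 with shPAX8-1 in OS-LM1 and 10 and 12 with shPAX8-2. KLHL24 (log2 fold change 3.39 ± 0.22 SE, adjusted p = 4.4e-09) and the secreted stanniocalcin STC2 (log2 fold change 2.95 ± 0.12 SE, adjusted p = 7.5e-11) led in 786-M1A with shPAX8-1, and the stress transcription factor ATF3 led in OS-LM1, at 2.67 and 2.63. The translation repressor EIF4EBP1 fell most with shPAX8-1 in OS-LM1 (log2 fold change -1.88 ± 0.14 SE, adjusted p = 1.0e-09) and the transaminase GPT2 with shPAX8-2 (log2 fold change -1.82 ± 0.14 SE, adjusted p = 6.4e-10). Of the 17 mitochondrial synthetases, 3 were higher and 8 lower with shPAX8-1 in 786-M1A, 2 and 8 with shPAX8-2, 2 and 12 with shPAX8-1 in OS-LM1 and 1 and 10 with shPAX8-2. With the GC trend removed the OS-LM1 counts became 0 higher and 12 lower with shPAX8-1 and 0 higher and 11 lower with shPAX8-2. Of the 6 genes for eIF2, its kinases and phosphatase, 4 were higher and 1 lower with shPAX8-1 in 786-M1A, 4 and 2 with shPAX8-2, and in OS-LM1 5 were higher with shPAX8-1 and all 6 with shPAX8-2, against the 35.6% and 34.3% of all genes given above. The OS-LM1 counts of these 6 genes became 3 and 4 with the GC trend removed, beside 5254 and 5238 of all 14710 genes.

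Whether the lines responded differently was tested with the mean of both constructs against sgNTC18, OS-LM1 minus 786-M1A. The difference was positive for 8 of 35 members, against a background of 29.9%, negative for 17, against 28.8%, and not called for 10, PHGDH again among them, with a median of -0.25 (0.00 over all genes). Among the negative were CTH (log2 fold change -3.03 ± 0.18 SE, adjusted p = 1.4e-13), ASNS (log2 fold change -2.0 ± 0.15 SE, adjusted p = 1.2e-11), DDIT3 (log2 fold change -1.66 ± 0.18 SE, adjusted p = 2.1e-08), VLDLR (log2 fold change -1.31 ± 0.10 SE, adjusted p = 3.3e-11) and AARS (log2 fold change -1.21 ± 0.13 SE, adjusted p = 2.4e-08). Among the positive were WARS (log2 fold change 1.77 ± 0.11 SE, adjusted p = 2.7e-13), HARS (log2 fold change 1.38 ± 0.12 SE, adjusted p = 2.2e-10), ATF5 (log2 fold change 1.13 ± 0.20 SE, adjusted p = 2.0e-05) and PSPH (log2 fold change 0.87 ± 0.12 SE, adjusted p = 4.2e-07). The test takes the sgNTC18 groups of both lines as its base, so a property of either of those groups cannot be told apart from a property of the line.

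With sgNTC18 alone, 12 of 35 members were higher in OS-LM1 than in 786-M1A, against a background of 32%, 10 were lower, against 31%, and 13 did not pass, with a median log2 fold change of 0.03 (0.01 over all genes). GDF15 (log2 fold change 1.14 ± 0.11 SE, adjusted p = 1.8e-09), ASNS (log2 fold change 0.86 ± 0.12 SE, adjusted p = 6.5e-07) and ATF5 (log2 fold change 0.85 ± 0.16 SE, adjusted p = 3.8e-05) were the most different among those higher, beside PHGDH with its 0 counts in 786-M1A. CBS (log2 fold change -1.20 ± 0.15 SE, adjusted p = 7.9e-08), TARS (log2 fold change -0.98 ± 0.08 SE, adjusted p = 1.3e-10), VARS (log2 fold change -0.79 ± 0.14 SE, adjusted p = 3.0e-05) and WARS (log2 fold change -0.74 ± 0.09 SE, adjusted p = 3.9e-08) were lower. ATF4 did not pass (log2 fold change 0.01 ± 0.11 SE, adjusted p = 0.92), nor did TRIB3 (log2 fold change 0.09 ± 0.14 SE, adjusted p = 0.612, which with the GC trend removed became 0.44 on the log2 scale, adjusted p = 0.00125 and passed), CHAC1 (log2 fold change -0.04 ± 0.24 SE, adjusted p = 0.883) or DDIT3 (log2 fold change -0.13 ± 0.15 SE, adjusted p = 0.458).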

How the data were processed

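RNA from 786-M1A and OS-LM1 cells was sequenced in 24 libraries of 6 groups. The labels name a stranded mRNA kit and the study's methods another supplier's kits, so the chemistry of these libraries is uncertain. For the deposited files the authors used RSEM with Bowtie2 and the hg38 build (per the submitters' processing notes, versions and annotation release not given in the sources used here). The deposited expected counts of RSEM are neither normalized nor whole. The TPM values were also made by the authors, deposited beside the expected counts and scaled for transcript length and library. The 35 members and all gene lists were chosen with earlier results of these data known. CPM were computed here from expected counts with 1 TMM scaling over 24 libraries. For the tests, expected counts were rounded, genes with low counts removed with filterByExpr, and groups compared with the robust quasi-likelihood test of edgeR 4.0.16 in R 4.3.3 with Benjamini-Hochberg adjustment over all genes tested and a threshold of 0.05. Comparisons within a line used its 12 libraries, and those between lines all 24. The SE is the log2 fold change over the square root of F. PHGDH fell below the filter in 786-M1A, so 34 members were tested there. Files use older symbols for the synthetases (AARS for AARS1 and so on).

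Alternatives were DESeq2 1.42.0, its size factors, no filter beyond 1 count, a stricter threshold, a minimum fold change, other sets of libraries, a replicate block and removal of each library's GC trend with a spline of 5 degrees of freedom. GC content was matched for 97.7 to 97.9% of the genes tested and for every member. Values were given in every group for ATF4, ATF5, DDIT3, ASNS, PSAT1, PHGDH, TRIB3, CHAC1, SESN2, GDF15, AARS, GARS, MARS, WARS and QARS. In each comparison the further 3 members with the largest change among those called in each direction, and the 2 such genes of each other list, were eligible to be named. CEBPB, CEBPG, CTH, CBS, VLDLR, RARS, LARS and the values of other members outside that rule were added after the values were seen. The fit was tested on simulated data. SEs include the spread between libraries, and the limit for a count of 0 covers counting error only. No column of another series was found.

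No 2 replicates agreed within sampling noise, with a lowest chi-square per gene of 3.73.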

Additional observations from a re-analysis of the deposited data

Results flagged for a closer look

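In 11 of 177 gene and group pairs, over 30 genes, 1 library stood far from the other 3 of its group; chance alone marks about 1 in 20 groups. In 5 of them it was replicate 1 of shPAX8-1 in 786-M1A, where ATF4 was at 761 CPM (others 560 to 584), CHAC1 at 12.7 CPM, GDF15 at 116 CPM, AARS at 270 CPM and CARS at 103 CPM, each the highest of its group. In the other groups of 786-M1A, ATF4 was at 439 CPM in shPAX8-2 replicate 3, CHAC1 at 3.90 CPM in sgNTC18 replicate 1, and VLDLR at 42.7 CPM in sgNTC18 replicate 2 and at 137 CPM in shPAX8-2 replicate 4, each the lowest of its group. In OS-LM1 CARS was at 57.6 CPM in shPAX8-2 replicate 2, the lowest, and DARS at 240 CPM in shPAX8-1 replicate 3, the highest.

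The difference between the constructs differed between the lines, OS-LM1 minus 786-M1A, by edgeR's test of that difference. It was 1.70 for CHAC1 and 0.81 for CBS, and negative for DDIT3 (-0.88), CEBPG (-0.88), RARS (-0.84), LARS (-0.81), PSAT1 (-0.69), WARS (-0.50), GDF15 (-0.48), AARS (-0.42, adjusted p = 0.0471) and GARS (-0.42, adjusted p = 0.0236). With the GC trend removed GARS (-0.16, adjusted p = 0.349) and CBS (0.52, adjusted p = 0.0589) were not called.

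The difference between both hairpins and sgNTC18 also differed between the lines by the same test. It was positive for WARS (1.77), HARS (1.38), ATF5 (1.13), PSPH (0.87), VARS (0.54) and GARS (0.43). Negative values were found for CTH (-3.03), ASNS (-2.0), DDIT3 (-1.66), VLDLR (-1.31), AARS (-1.21), CBS (-1.10), CHAC1 (-0.77, adjusted p = 0.0292), QARS (-0.56) and MARS (-0.37, adjusted p = 0.0127). Constructs of a different type underlie the latter test, so the loss of PAX8 and the type of construct cannot be told apart.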

How the results depend on the processing

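With the GC trend removed, 9 single results turned: against sgNTC18 with shPAX8-1 in 786-M1A, TRIB3 became 0.04, GARS -0.19 and QARS 0.03, between the constructs in 786-M1A CHAC1 became 0.44, with shPAX8-1 in OS-LM1 ATF4 became 0.35 and ATF5 0.31, and with shPAX8-2 in OS-LM1 ATF4 became 0.05, ATF5 0.03 and GARS -0.02 (log2 fold changes). Over 189 results for single genes and 3474 alternative values, 3229 kept their side of the threshold (some that were called under neither setting changed sign), 59 passed it newly, 177 no longer passed and these 9 turned with a call under at least 1 of both settings. The count of members lower between the constructs in 786-M1A, 3, became 1 with the GC trend removed, 0 with shPAX8-1 replicates 1 and 2 only, 5 with replicates 3 and 4 only, 1 at an adjusted p under 0.01 and 0 with a minimum log2 fold change of 0.58. It ran from 1 to 3 as single libraries were left out. In OS-LM1 the count of lower members, 4, became 2 with all 24 libraries in 1 fit, 2 at 0.01 and 0 with the minimum, and ran from 2 to 4 (single libraries left out), while the 8 higher became 5 with the minimum. With shPAX8-2 against sgNTC18 in OS-LM1 the 13 higher became 7 without the filter, 7 at 0.01 and 4 with the minimum, ran from 8 to 12 without 1 library, and the 17 lower became 9 with the minimum. With that minimum the lower counts against sgNTC18 in 786-M1A became 3 (shPAX8-1) and 7 (shPAX8-2), shPAX8-1 in OS-LM1 gave 6 higher and 6 lower, and OS-LM1 against 786-M1A gave 4 and 4. Without the filter shPAX8-2 against sgNTC18 in 786-M1A gave 8 higher and 15 lower, beside 4545 and 4876 over all genes. The replicate numbers did not pair the libraries: residuals of libraries with the same number correlated at a mean of 0.062 in 786-M1A (-0.392 to 0.347) and -0.049 in OS-LM1 (-0.207 to 0.119). With a replicate block the constructs gave 19 higher and 3 lower in 786-M1A and 8 and 3 in OS-LM1, and the comparisons with sgNTC18 gave 19 and 8 (shPAX8-1) and 10 and 14 (shPAX8-2) in 786-M1A and 13 and 10 and 11 and 15 in OS-LM1. It gave 8 and 9 for OS-LM1 against 786-M1A and 2 and 13 (constructs) and 8 and 16 (shPAX8) for the differences between the lines. Between the constructs the replicate block called 3581 of all genes higher and 3417 lower in 786-M1A, and 1563 and 2079 in OS-LM1. Shares over all genes were not computed at 0.01 or with the minimum, so those counts stand without a background. Apart from the settings' own construction the causes were not tested. CHAC1, CBS, CTH and PHGDH rest on the fewest counts.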
